A study of Mus musculus with 8 samples.

Results

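Supt5, Ccnl1, Fip1l1 and Cnot2 are 4 genes that act between the start of productive transcription and the shortening of the poly(A) tail. Every listed splicing event under these 4 names was taken, out of 638 gene names found in either of 2 deposited tables. The genes were chosen by their measured changes in splicing, so those changes are given below as a description and carry no test. They held 6 of 862 local splicing variations, which are sets of junctions that share an exon, and 2 of 498 events in a table of junction usage.

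The cells were cultured hepatocytes from C57BL/6J mice homozygous for a floxed Srsf3 allele. An adeno-associated virus (AAV) delivered either Cre recombinase (AAV-Cre, 4 libraries, genotype Srsf3-KO) or green fluorescent protein (AAV-GFP, 4 libraries, genotype Srsf3-flox), and infection lasted 48 h. The floxed alleles, the culture and a viral infection were thus common to both groups, and the labels do not say how many mice were used or whether cells were pooled. Each table holds 1 value per group or per comparison, so library depth, the spread between libraries and the levels of hepatocyte markers are unknown. Usage of a junction is given as percent spliced in (PSI), the share of the splicing at a shared exon that takes this junction, on a scale of 0 to 1. As a check of the labels, the authors' deposited table puts the PSI of the Srsf3 junction between its exons 1 and 2 at 0.998 with AAV-GFP and 0.157 with AAV-Cre.

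SRSF3 is an SR protein, a family that binds RNA and helps to choose splice sites. The product of Supt5 forms the DSIF complex with SPT4, which first holds RNA polymerase II near the promoter and then travels with it during elongation. Cyclin L1, from Ccnl1, pairs with CDK11 kinases and sits in nuclear speckles with splicing factors. FIP1, from Fip1l1, is a subunit of the cleavage and polyadenylation specificity factor that binds U-rich RNA and poly(A) polymerase. CNOT2 is a scaffold subunit of the CCR4-NOT complex, which removes poly(A) tails in the cytoplasm.

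The data show 5 alternative exons in these genes. Inclusion after Cre was lower for a microexon of Supt5, for exon 9 of Fip1l1 and for an exon of Cnot2, and higher for an exon of Ccnl1 and for exon 11 of Fip1l1. All 6 local variations had a junction that differed by at least 0.2, which says little by itself, since 95.2% of all listed variations did. Of 13 distinct junctions, 11 differed by at least 0.2, against 24.7% of all listed junctions. Of these 5 were higher in AAV-Cre, where the share of all listed junctions was 12.3%, and 6 were lower, where it was 12.4%. The genes were chosen on this contrast. Their variations have 2 or 3 junctions each, whereas only 175 of all 862 variations have 2. A variation of 2 junctions changes in both or in neither, so nothing is read from these counts. The 2 junctions under 0.2 were an intron of Supt5 and a rare junction of Cnot2.

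**Figure D1:**
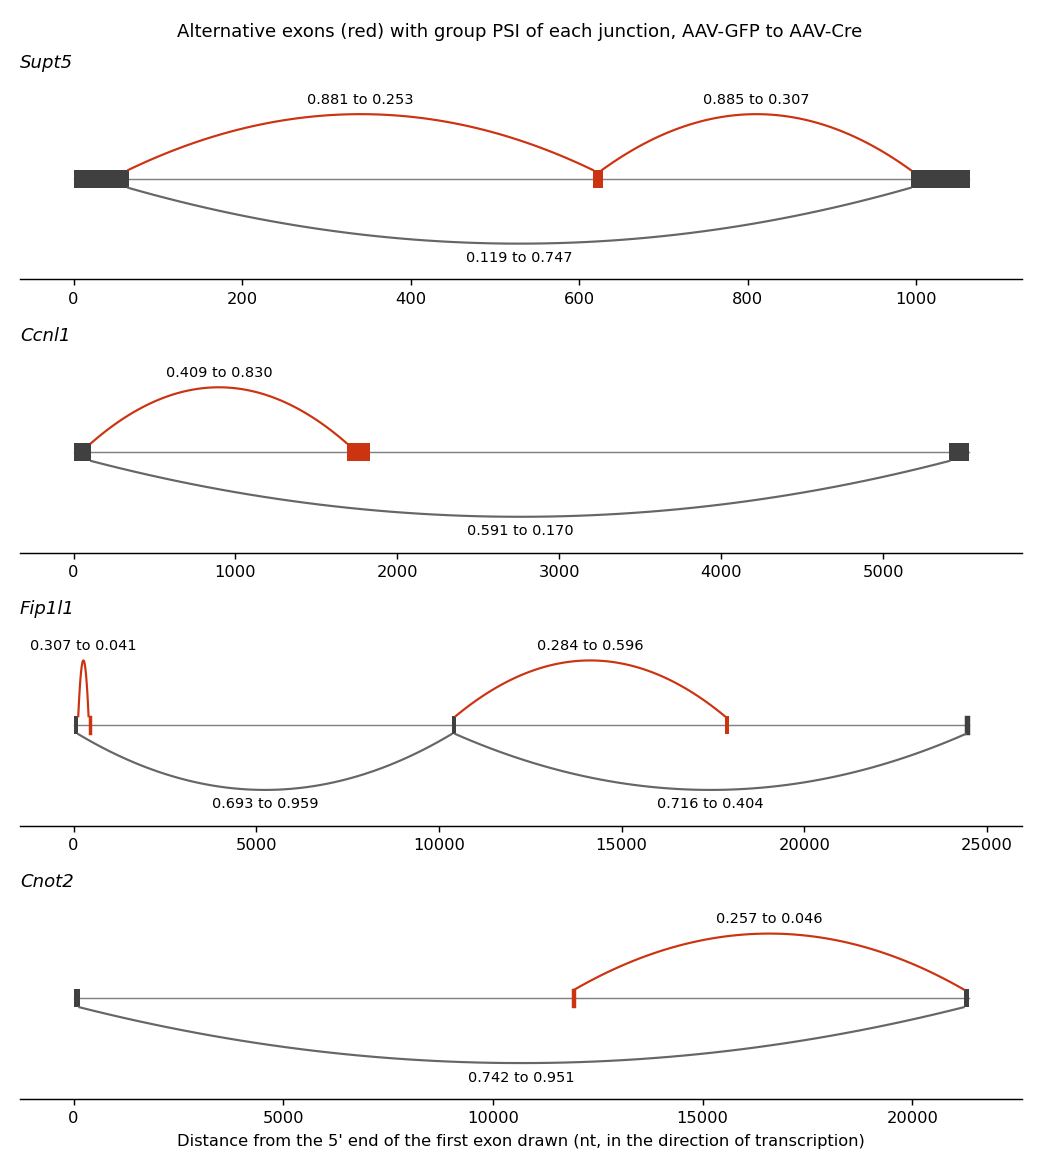
Each panel draws 1 gene to scale in the direction of transcription, with distance in nt from the first exon drawn on the x axis, alternative exons in red, other exons in dark grey, and arcs for junctions labelled with group PSI in AAV-GFP and then in AAV-Cre. The red arc of Ccnl1 goes from 0.409 to 0.830 and that of Cnot2 from 0.257 to 0.046; for Ccnl1 the longer and for Cnot2 the shorter of 2 annotated forms of the red exon is drawn.

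Exon 5 of Supt5 (ENSMUSG00000003435.9) is 12 nt long and lies on the minus strand of chromosome 7 from 28330018 to 28330029 (mm10). It is coding, overlaps no other annotated gene, and stands in 4 of the 8 Supt5 transcripts of GENCODE vM21, of which 2 are protein-coding. None of the vM21 transcripts joins exon 4 directly to exon 6, so the skipping junction is absent from that annotation. The letters below are the end of exon 4, the microexon in capitals and the start of exon 6, followed by the same join without the microexon.
Supt5 with exon 5: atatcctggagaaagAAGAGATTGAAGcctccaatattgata
Supt5 without exon 5: atatcctggagaaagcctccaatattgata

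The microexon was joined in most Supt5 RNA in AAV-GFP and in a minority in AAV-Cre. Seen from exon 4, the authors' deposited table gave the junction into the microexon a PSI of 0.881 with AAV-GFP and 0.253 with AAV-Cre. For the junction that skips it, the authors' deposited table gave 0.119 and 0.747, an expected change (the authors' estimate, AAV-Cre minus AAV-GFP) of 0.642. Seen from exon 6, the authors' deposited table gave 0.885 and 0.307 for the junction from the microexon, and 0.087 and 0.687 for the skipping junction. The expected change of inclusion was thus -0.642 on the exon 4 side and -0.593 on the exon 6 side. Between the microexon and exon 6, the retained intron (28329653 to 28330017) stood at 0.027 with AAV-GFP and 0.006 with AAV-Cre by the authors' deposited table. Its expected change was -0.001, so the lower inclusion stood beside higher skipping, with no gain in retention of that intron.

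Supt5 also had the only event of these genes that passed in the table of junction usage. There the same exon, matched within 2 nt, changed by -0.540 with a p-value of 7.04e-05 and a q-value of 0.0172 in the authors' deposited table. Calling an event took a q-value up to 0.05 and a change of at least 0.1, and 11.4% of the 498 events listed were called. The tables come from the same libraries, so their shared direction is no independent support. With exon 5, the frame of transcript Supt5-201 runs for 1082 codons, and without it for 1078 codons to the same stop codon. Of 165343 internal coding exons in vM21, 0.232% are as short as 12 nt or shorter.

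**Figure D2:**
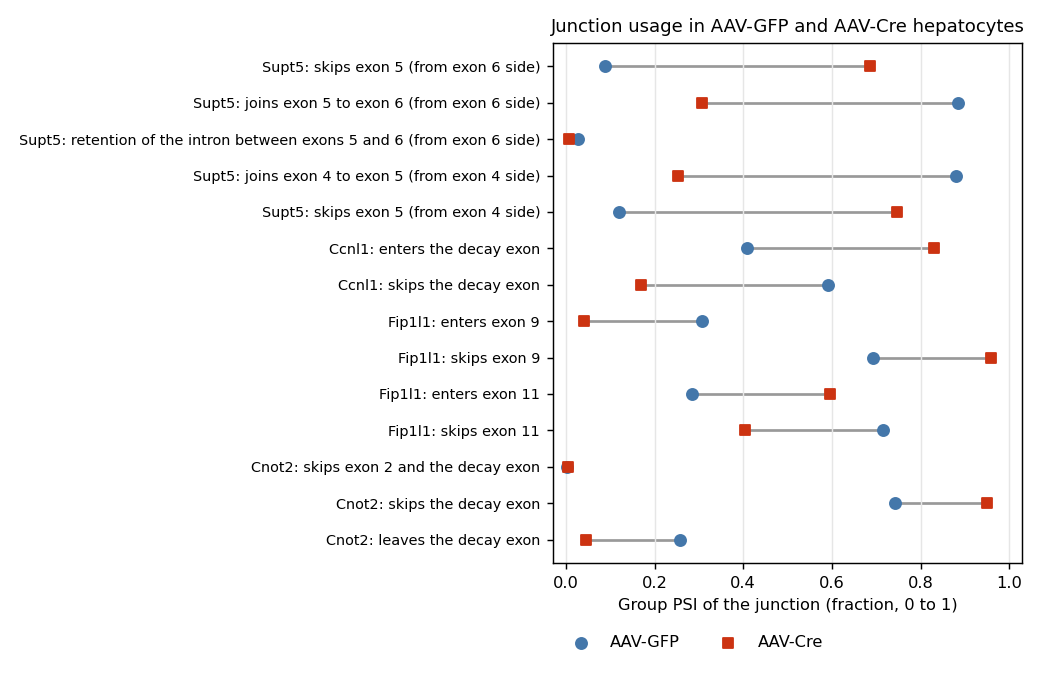
The x axis is the authors' group PSI of each junction (fraction), with circles for AAV-GFP, squares for AAV-Cre and a line between them. Each row is a junction of a local variation, and there are no error bars because only 1 value per group is given. The widest gap is at the junctions of Supt5 seen from exon 4 (0.881 against 0.253 for inclusion), and the circle of the rare Cnot2 junction (0.001) lies under its square (0.004).

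In Ccnl1 (ENSMUSG00000027829.15), inclusion of an exon that ends the reading frame was higher after Cre. This exon lies between exons 3 and 4 of the protein-coding transcript, on the minus strand of chromosome 3, and vM21 gives it 2 forms that share the end at 65955276. The long form starts at 65955130 and has 147 nt, and the short form starts at 65955204 and has 73 nt. Either form stands in 7 of 14 Ccnl1 transcripts, of which 5 are of the nonsense-mediated decay type and 0 are protein-coding. It is called the decay exon here for that reason. Nonsense-mediated decay is the pathway that degrades mRNA with a stop codon well before the final exon junction. Read in the frame of exon 3, the exon meets a stop codon (in capitals) that begins at its base 29, and only the part up to that stop is shown.
Ccnl1 decay exon, start to stop: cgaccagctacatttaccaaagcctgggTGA

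By the authors' deposited table, the PSI of the Ccnl1 junction that enters the decay exon from exon 3 was 0.409 with AAV-GFP and 0.830 with AAV-Cre. Direct joining of exons 3 and 4 went from 0.591 to 0.170 in that authors' deposited table, an expected change of -0.432. In vM21, 3 transcripts hold this join, 1 protein-coding and 2 of the retained intron type. The stop codon stands at 65955246 to 65955248. With the exon the frame of Ccnl1-201 has 178 codons and without it 532. From that stop to the last exon junction there are 860 nt with the long form and 786 nt with the short form. The PSI does not say which form was used, because both share the end that the junction enters. No gene other than Ccnl1 overlaps the exon in vM21.

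By junction usage Ccnl1 was listed as a composite event, an event of several junctions, whose coordinates hold the ends of both forms of the decay exon. The authors' deposited table gave it changes of -0.407 and 0.407 with 3 further values that were not finite, a p-value of 0.000397 and a q-value of 0.053. It therefore did not pass at 0.05. That table does not say which junction each change belongs to, so no direction is taken from it.

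**Figure D3:**
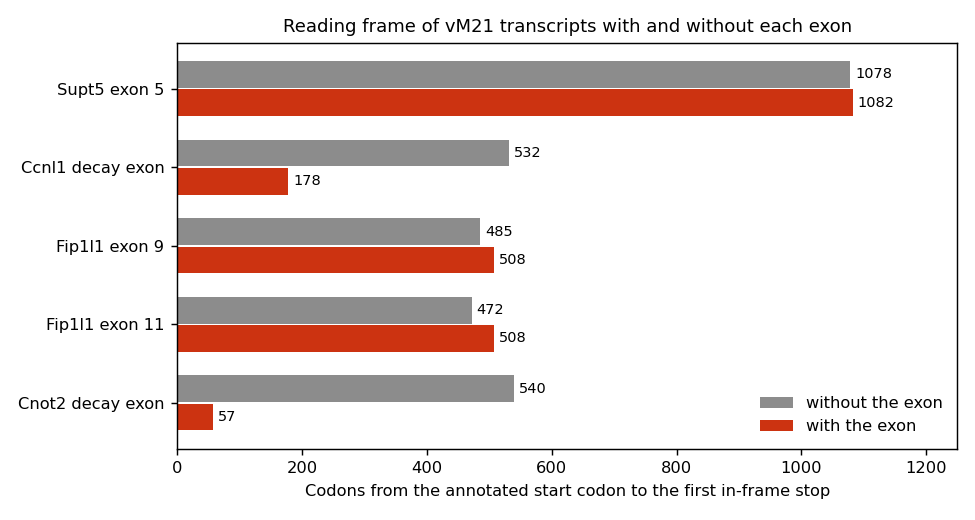
Bars give the number of codons from the annotated start codon to the first in-frame stop (x axis, from 0) for a vM21 transcript without (grey) and with (red) each alternative exon. The exons of Supt5 and Fip1l1 move the count by their own codons, while those of Ccnl1 (532 to 178) and Cnot2 (540 to 57, short form) bring an early stop.

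Fip1l1 (ENSMUSG00000029227.15), on the plus strand of chromosome 5, had 2 coding exons that differed in opposite directions. Exon 9 of transcript Fip1l1-202 (74547107 to 74547175) has 69 nt, and exon 11 (74564519 to 74564626) has 108 nt. Both lengths are divisible by 3, as are 41.1% of internal coding exons in vM21, and neither exon overlaps another annotated gene. The sequences are shown because these exons change the protein without ending its frame. Capitals mark a word described under the motifs below.
Fip1l1 exon 9: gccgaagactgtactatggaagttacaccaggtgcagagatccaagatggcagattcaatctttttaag
Fip1l1 exon 11: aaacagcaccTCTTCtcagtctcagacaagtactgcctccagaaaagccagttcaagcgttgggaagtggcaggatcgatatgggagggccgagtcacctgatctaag

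Exon 9 of Fip1l1 was a minor choice in AAV-GFP and close to absent in AAV-Cre. The authors' deposited table put the junction that enters it from exon 8 at 0.307 with AAV-GFP and 0.041 with AAV-Cre, while the junction past it went from 0.693 to 0.959. Exon 11 moved from the minor to the major choice. For the junction that enters it from exon 10, the authors' deposited table gave 0.284 and 0.596, and for the junction past it 0.716 and 0.404. The expected changes of inclusion were -0.274 and 0.317. Frames of 508 codons with both exons become 485 codons without exon 9 and 472 without exon 11, with the same stop codon.

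In vM21, 6 Fip1l1 transcripts span this region, of which 2 hold both exons, 1 holds exon 9 alone, 1 holds exon 11 alone and 2 hold neither. All but the transcript with exon 9 alone are protein-coding. The junctions of the 2 exons were measured in separate variations, so the values do not say how often both exons stand in the same RNA. No event of Fip1l1 was listed by junction usage at p below 0.05.

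**Figure D4:**
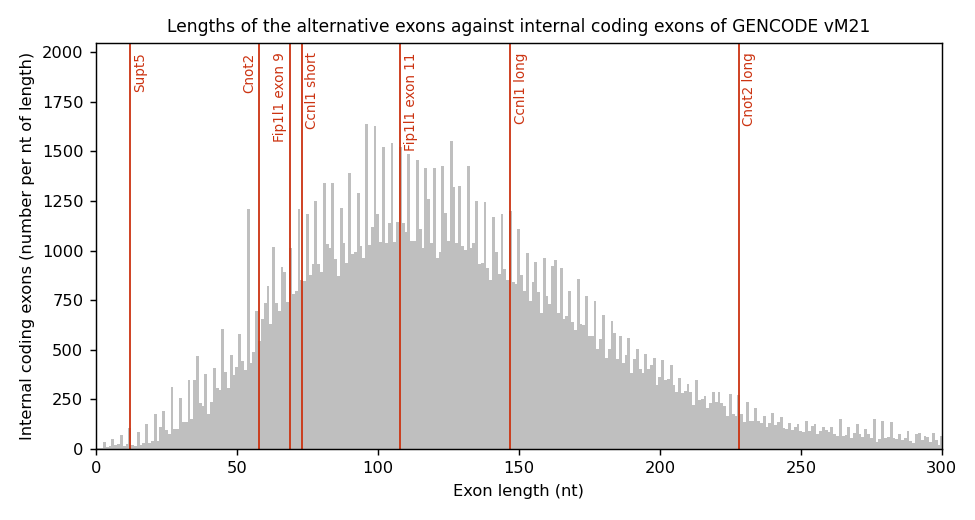
Grey bars count distinct internal coding exons of vM21 at each length (x axis in nt, up to 300), and red lines mark the alternative exons, with both forms for Ccnl1 and Cnot2. Exon 5 of Supt5 at 12 nt stands at the lower end, and the exons of Fip1l1 at 69 and 108 nt stand within the bulk.

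Inclusion of an exon in Cnot2 (ENSMUSG00000020166.15) with an early stop was lower after Cre. The exon lies on the minus strand of chromosome 10 between exon 2, which holds the start codon, and exon 3. It has a short form of 58 nt (116537221 to 116537278) and a long form of 228 nt (116537221 to 116537448). Either form stands in 3 Cnot2 transcripts of vM21, all of the nonsense-mediated decay type, and this is the decay exon of Cnot2 below. The short form shifts the frame, so that a stop follows in the next exon at 116527882 to 116527884, after 57 codons. The long form is divisible by 3 but holds a stop of its own at 116537350 to 116537352, after 48 codons. Transcript Cnot2-203 without the exon has 540 codons. The short form is shown, with a CATC word in capitals.
Cnot2 decay exon, short form: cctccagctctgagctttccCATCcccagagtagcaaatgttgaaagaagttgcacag

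The authors' deposited table put the junction that leaves the decay exon of Cnot2 for exon 3 at 0.257 with AAV-GFP and 0.046 with AAV-Cre. The direct junction between exons 2 and 3 was at 0.742 and 0.951 in that authors' deposited table. A junction that reaches exon 3 from the first exon was at 0.001 and 0.004 in the authors' deposited table. The expected changes of the first 2 were -0.205 and 0.20, next to the limit of 0.2 and the smallest among the 6 variations. The entry into the decay exon was not listed, so the form in use is not known. Cnot2 had no event listed by junction usage.

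The Cnot2 junctions were also listed under another gene. The authors' deposited table gives the same 2 junctions to 5330438D12Rik, a noncoding gene on the opposite strand (116509052 to 116583515), at 0.256 and 0.036 for the junction at the decay exon and 0.744 and 0.964 for the other. In vM21, 0 of 13 exons of 5330438D12Rik lie in the span of this variation, whereas Cnot2 has annotated exons at all of its ends. These 2 listings hold nearly the same values and are counted once here. Within the intron of 21083 nt that the direct junction removes lies a further gene, the miRNA gene Gm25190, on the strand of Cnot2. It is not at a junction end.

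The 4 genes covered much of the range of sizes in the list of local variations. By largest change, the 2 variations of Supt5 took places 103 and 115 of 862, Ccnl1 256, Fip1l1 457 and 573, and Cnot2 795. Their median size was 0.375, beside 0.329 for all 862 listed. Among the 175 variations with only 2 entries, those of Supt5, Ccnl1 and Fip1l1 took places 16, 41, 80 and 105.

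**Figure D5:**
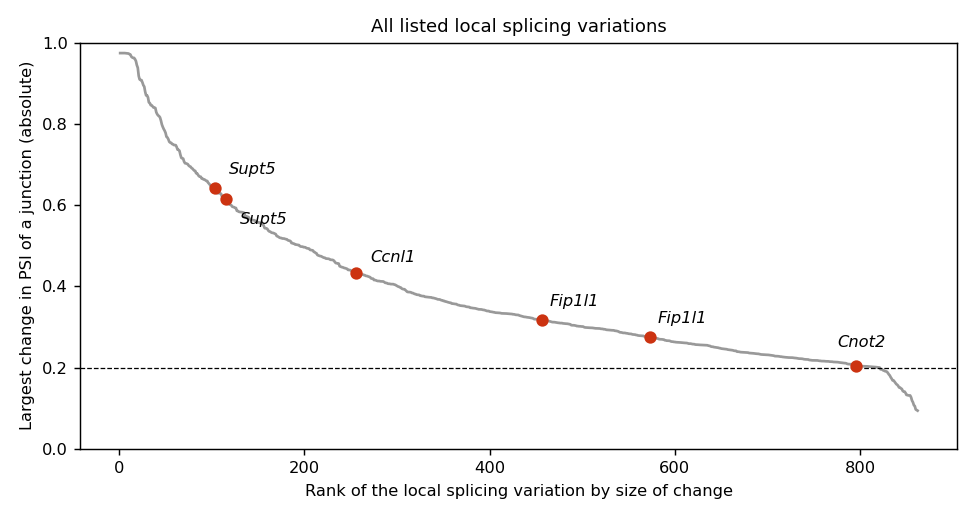
The grey line gives the largest absolute change in PSI (y axis) of each of the 862 listed variations by rank (x axis), red points are the variations of the 4 genes, and the dashed line is 0.2. Supt5 stands highest of the 4 at place 103, and Cnot2 lies next to the dashed line.

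SRSF3 is known to bind CATC and 5-base words with C at positions 2 and 5 and A or T elsewhere, and some of these words hold CATC. Both were searched on the sense strand of the exons, in the sequences of vM21 transcripts. Exon 5 of Supt5 held neither, like most exons of 12 nt, of which 1.9% held CATC and 0.952% a 5-base word. Neither was found in exon 9 of Fip1l1, where 26.8% and 44.6% of internal coding exons of that length hold them. Exon 11 of Fip1l1 held TCTTC once, as 59.9% of exons of its length hold such a word, and no CATC (42.4%). In the long form of the Ccnl1 exon neither was found, against 57.2% and 73.5% of exons of that length, nor in its short form, against 29.9% and 50.2%. The short form of the Cnot2 exon held CATC once (25.8%) and no 5-base word (42.1%). The long form of the Cnot2 exon held CATC 2 times (64.3%) and 4 of the 5-base words (86.4%), and which form was in use is not known. These are matches of letters within exons, and the introns were not searched. All the shares given are of internal exons that are coding along their whole length. The exons of Ccnl1 and Cnot2 stand in no protein-coding transcript, so for them that class is unlike.

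Other genes of the same steps were looked up in lists of 39 elongation genes, 5 genes around cyclin L and CDK11, 22 cleavage and polyadenylation genes and 24 deadenylation genes. Local variations were listed for 4, 1, 1 and 1 of them. Each of these genes had a change of at least 0.2, which says little, since 95.2% of all listed variations did. Beyond the 4 genes above, the genes with a listed variation were 3 elongation genes. The inclusion junction of an exon of Supt6, a histone chaperone that travels with RNA polymerase II, was at 0.991 with AAV-GFP and 0.722 with AAV-Cre by the authors' deposited table. Use of the nearer of 2 acceptor sites 3 nt apart in Cdk12, a kinase of the polymerase tail, was at 0.994 and 0.720 in that authors' deposited table. For the most changed junction of Eloc, which encodes elongin C, the authors' deposited table gave 0.742 and 0.435.

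By junction usage, 1 of 2 listed elongation genes passed, Supt5. Of the 2, 1 and 1 genes listed from the other lists, 0 passed. Of all 498 listed events, 11.4% passed. Cdk11b, which encodes a kinase partner of cyclin L1, was listed in the authors' deposited table with a change of -0.585 and its opposite for 2 donor sites (p = 0.00811, q = 0.288). The elongation factor gene Tcea1 had -0.185 and its opposite for 2 acceptor sites (q = 0.547), and Pabpn1, for the nuclear poly(A)-binding protein, one of 0.040 (q = 0.262), in the authors' deposited table. Cnot1, the large scaffold of the CCR4-NOT complex, was listed without a finite change (q = 0.333) in the authors' deposited table.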

How the data were processed

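Per the labels' protocols, 8 libraries of hepatocyte RNA were made with a stranded mRNA kit and read from both ends. FastQC, STAR and mm10 are named in the submitters' processing notes, with roles and versions not given in the sources used here. The first deposited table has columns headed like the output of MAJIQ's viewer, VOILA, and gives the authors' group PSI as a fraction with its expected change. In all 1562 entries whose group PSI differed by at least 0.2, the sign of that change was opposite to AAV-Cre minus AAV-GFP, so it was turned. Its column headed as a probability that the change reaches 0.2 was not used, because it did not follow the size of the change. It gave 0.36 and 0.212 for the Supt5 skipping junction, whose changes were 0.615 and 0.642, but 1 for the retained intron of Supt5, whose change was -0.001. The second deposited table, made with JUM per the file header, holds events at p below 0.05, each with the authors' p-value, the q-value and the PSI change.

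Exons, frames and sequences came from GENCODE vM21 (GRCm38, the same assembly as mm10). No test of significance was computed. The named genes were the 4 members, genes overlapping their junctions, Srsf3, and up to 4 listed genes per pathway list. Members and lists were chosen with earlier results of these data known. The labels do not say that each library had its own animal, so the authors' p-values may measure technical spread. Counting was tested on simulated data. Alternatives changed size, q-value and measure of change. Tools were Python 3.11.15 and matplotlib 3.10.9.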

Additional observations from a re-analysis of the deposited data

How the results depend on the processing

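At a change of at least 0.3 in place of 0.2, 7 of the 11 member junctions and 4 of the 6 member variations were left, since those of Cnot2 and of exon 9 of Fip1l1 are smaller. Pathway genes with a change went from 7 to 4 at that size. The shares of all listed variations and junctions at that size were not counted. The median largest change of all 862 variations was 0.329, so nothing about the members is read from these counts. At 0.1 the member counts stayed at 11 and 6. With the difference of the group PSI values in place of the deposited change, all 13 junctions kept their side of 0.2, and none moved by more than 0.020. By junction usage, 2 member events in place of 1 passed, both with a q-value of 0.1 or less and by p below 0.05 alone, the addition being Ccnl1. No paired analysis was possible because the tables hold no values per library, and for the same reason no library could be left out. Read depth at each junction is unknown, so the error of each PSI is too.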

Other observations

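Among the listed variations of 2 junctions without an intron, 73 annotated exons of GENCODE vM21 lay within the longer junction and bordered the shorter. Whether each is an internal exon joined on both sides was not checked. Of the 73, 31 were higher and 42 lower in AAV-Cre by at least 0.2. Every listed variation of 2 junctions reaches that size (lowest 0.201). The 42 include an exon of Srsf3, the floxed gene itself (0.995 to 0.006 in the authors' deposited table). With forms pooled, the exon of Ccnl1 was the only one of the 73 in annotated nonsense-mediated decay transcripts and in none that was protein-coding. It also stood in 2 transcripts of the retained intron type. The decay exon of Cnot2 stands in a variation of 3 junctions and was outside this count. Of the other 72 exons, 70 stood in a protein-coding transcript and 2 in transcripts of further types. Exon lengths were divisible by 3 for 47 of these 70 exons, 18 higher and 29 lower, the 29 including that of Srsf3. The share among internal coding exons of vM21 is 41.1%. Whether each of the 70 lies within the coding sequence was not checked.

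Exon 5 of Supt5 was the shortest of the 73 exons. The 5 exons of 30 nt or less, a limit chosen after the values were seen, did not share a direction. In the authors' deposited table, exons of 27 nt in the kinase gene Mark3 (0.978 to 0.501) and 24 nt in Picalm (0.729 to 0.490), which acts in endocytosis, were lower, like that of Supt5. Exons of 20 nt in the ribosomal protein gene Rps24 (0.087 to 0.406) and 30 nt in Luc7l2 (0.290 to 0.567), which encodes a splicing factor of the U1 particle, were higher in the authors' deposited table. These counts are a description with no test.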
